A study of Mus musculus with 12 samples.

Results

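The genes described here are 10 inducible genes of inflammatory metabolism in oligodendrocyte precursor cells (OPCs), namely *Nos2*, *Gch1*, *Ass1*, *Ptgs2*, *Ptges*, *Irg1* (now *Acod1*), *Ido1*, *Steap4*, *Lcn2* and *Cmpk2*. They were chosen by symbol, and all 10 were found among the 45563 symbols used. Of these, *Lcn2* encodes a siderophore-binding protein and not an enzyme. The series holds RNAseq of 12 libraries from cultured mouse OPCs, in 4 groups of 3. WT cells came from C57BL/6J mice and TNFR2-/- cells from germline knockout mice, a deletion that is not limited to OPCs. Cortices of pups between postnatal days 2 and 5 by the labels were dissociated, the methods name anti-PDGFRα magnetic beads for the selection of OPCs, and the cells were kept 3 days in vitro. Stimulated (St) cells were then exposed for 3 h to TNF, IFNγ and IL1β at 25 ng/mL each, and non-stimulated (NS) cells to PBS vehicle. The replicate numbers in the labels are 2, 3 and 4 for WT and 2, 4 and 5 for TNFR2-/-.

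Library totals ranged from 26886878 to 30335265 read pairs. OPC markers were present in every library, with *Pdgfra* at 8000 to 20680 reads. Of 13 microglia and macrophage markers, 10 stayed under 0.5 FPKM in every library. FPKM is the deposited unit, reads scaled to the library and to a number of bases per gene that did not follow annotated length. Of those 10 markers, 6 (*Aif1*, *Cx3cr1*, *Ptprc*, *C1qa*, *C1qb*, *C1qc*) had no more than 3 reads in any library. The summed level of these 13 markers was 18.3 to 20.4 RPM (reads scaled to the same library total) in WT NS, 17.7 to 19.5 in WT St, 15.2 to 18.2 in TNFR2-/- NS and 19.9 to 21.9 in TNFR2-/- St libraries. *Tnfrsf1b*, the gene of TNFR2, was found at 12 to 24 reads in the WT NS libraries and at 61 to 145 in WT St, against 213 to 346 in libraries labelled TNFR2-/- NS and 282 to 356 in those labelled TNFR2-/- St. The deleted gene thus had more reads where it is labelled as absent, and TNFR2-/- from here on always means the library labelled so. Gene-level values do not tell which part of the gene these reads came from, and this was not tested. Culture 5 of TNFR2-/- stood apart, with *Gfap*, an astrocyte marker, at 231 FPKM (NS) and 233 FPKM (St) against 6.23 to 42.5 FPKM in the other 10 libraries. Of 7 astrocyte markers, all but *Aldh1l1* were highest of their condition in this culture. The summed level of 7 astrocyte markers was 1602 to 1940 RPM over the WT libraries and 2390 to 3953 over those labelled TNFR2-/-.

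These genes are known as part of the response of glia and myeloid cells to cytokines. NF-κB, downstream of TNF and IL1β, binds DNA near many such genes. Their products make nitric oxide (*Nos2*, with *Gch1* for its cofactor and *Ass1* for its substrate), prostaglandin E2 (*Ptgs2* and *Ptges*), itaconate (*Irg1*) and kynurenine (*Ido1*), handle iron (*Steap4* and *Lcn2*) and phosphorylate nucleotides in mitochondria (*Cmpk2*).

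The bases just before the transcription start are shown for 5 of the genes, because *Steap4*, *Irg1* and *Gch1* hold the sequences searched for, while *Lcn2* and *Ptgs2*, which are among those with the most reads after stimulation, hold none of them. RefSeq promoters on GRCm38.p6 were at hand for 8 of the 10 genes. *Nos2* and *Ido1* were not among them. Each run is the 250 bases before 1 RefSeq start, on the strand of the gene, in lower case with matches in capitals. That start can differ from the gene ends used for positions elsewhere in the text. The *Lcn2* and *Ptges* windows lie inside genes that end at 32388252 and 30929863 on chromosome 2. Those of *Irg1* and *Steap4* run past the gene starts given below. Matches and their absence refer to these windows only. The matches are the 10-base κB consensus, the GAS sequence TTCNNNGAA, the core of the ISRE, the CRE sequence TGACGTCA and the TATA sequence TATAAA, each searched on both strands.
*Steap4*, chr5:7960222-7960471, plus strand: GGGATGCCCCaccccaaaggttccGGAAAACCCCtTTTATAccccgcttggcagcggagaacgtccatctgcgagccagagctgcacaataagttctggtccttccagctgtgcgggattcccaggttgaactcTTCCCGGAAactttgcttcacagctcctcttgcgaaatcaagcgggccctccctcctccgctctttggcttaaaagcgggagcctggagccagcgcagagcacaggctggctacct
*Irg1*, chr14:103046762-103047011, plus strand: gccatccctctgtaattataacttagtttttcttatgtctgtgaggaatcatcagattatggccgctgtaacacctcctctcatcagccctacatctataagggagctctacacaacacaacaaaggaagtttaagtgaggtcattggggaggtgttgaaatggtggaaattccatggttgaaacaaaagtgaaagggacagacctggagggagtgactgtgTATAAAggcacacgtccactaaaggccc
*Gch1*, chr14:47189414-47189663, minus strand: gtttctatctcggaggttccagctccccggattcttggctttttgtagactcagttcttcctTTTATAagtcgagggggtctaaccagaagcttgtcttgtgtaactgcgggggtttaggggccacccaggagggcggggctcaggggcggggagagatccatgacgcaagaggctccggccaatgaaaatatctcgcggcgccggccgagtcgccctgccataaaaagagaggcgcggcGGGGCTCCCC
*Lcn2*, chr2:32387740-32387989, minus strand: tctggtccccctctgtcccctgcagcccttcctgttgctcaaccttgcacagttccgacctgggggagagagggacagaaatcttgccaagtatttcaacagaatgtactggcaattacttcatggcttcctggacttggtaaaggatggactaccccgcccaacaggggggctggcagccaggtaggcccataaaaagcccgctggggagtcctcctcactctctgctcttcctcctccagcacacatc
*Ptgs2*, chr1:150099781-150100030, plus strand: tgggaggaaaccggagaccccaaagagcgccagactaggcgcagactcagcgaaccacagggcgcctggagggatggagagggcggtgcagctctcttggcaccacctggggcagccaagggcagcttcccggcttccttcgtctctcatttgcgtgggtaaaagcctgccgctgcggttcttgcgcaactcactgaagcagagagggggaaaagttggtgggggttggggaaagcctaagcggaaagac
In the *Steap4* window the κB consensus occurred at -250 to -241 and at -226 to -217 from the start, the GAS sequence at -116 to -108 and the TATA sequence, on the opposite strand, at -215 to -210, with no overlap among them. In *Irg1* the TATA sequence lay at -28 to -23. In *Gch1* a κB match took up the last 10 bases, -10 to -1, and a TATA match on the opposite strand lay at -188 to -183. The κB consensus was thus in 2 of 8 promoters, against 7.25% of all 32851 promoters of this length, the GAS sequence in 1 of 8 against 7.02%, and the TATA sequence in 3 of 8 against 12.4%. ISRE (2.98% of all promoters) and CRE (1.55%) matches were in none of the 8. These are matches of letters in a short window and say nothing of binding.

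After stimulation, 8 of the 10 genes rose in WT and the same 8 rose in TNFR2-/- OPCs, namely *Nos2*, *Gch1*, *Ptgs2*, *Ptges*, *Irg1*, *Steap4*, *Lcn2* and *Cmpk2*. *Ido1* stayed near the limit of detection and *Ass1* showed no detectable change. A gene was called at a limma adjusted p (Benjamini-Hochberg, over 18081 genes) of at most 0.05, a change of at least 1.5-fold on the log2(FPKM + 0.5) scale and a mean of at least 1 FPKM over the 12 libraries. By this rule 4.58% of all genes tested were called higher in WT St vs WT NS and 5.41% in TNFR2-/- St vs TNFR2-/- NS. The median log2 difference of the 10 genes was 2.28 in WT and 3.03 in TNFR2-/-, against -0.05 and -0.11 over all genes tested. All 10 genes passed the filter for testing (a mean of 0.1 FPKM). For the level of 1 FPKM, 8 passed, and 6 of these did so through the St groups, since only *Ptgs2* and *Cmpk2* reached 1 FPKM in an NS group, so that the count is a description of the 10 and not evidence for them. The St and NS ranges of 9 genes did not overlap in WT, with St higher, and 13.7% of all genes did the same. In TNFR2-/- the number was also 9, against 12.7%. The tests measured the spread between cultures of cells that may each have been pooled from several pups.

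**Figure D1:**
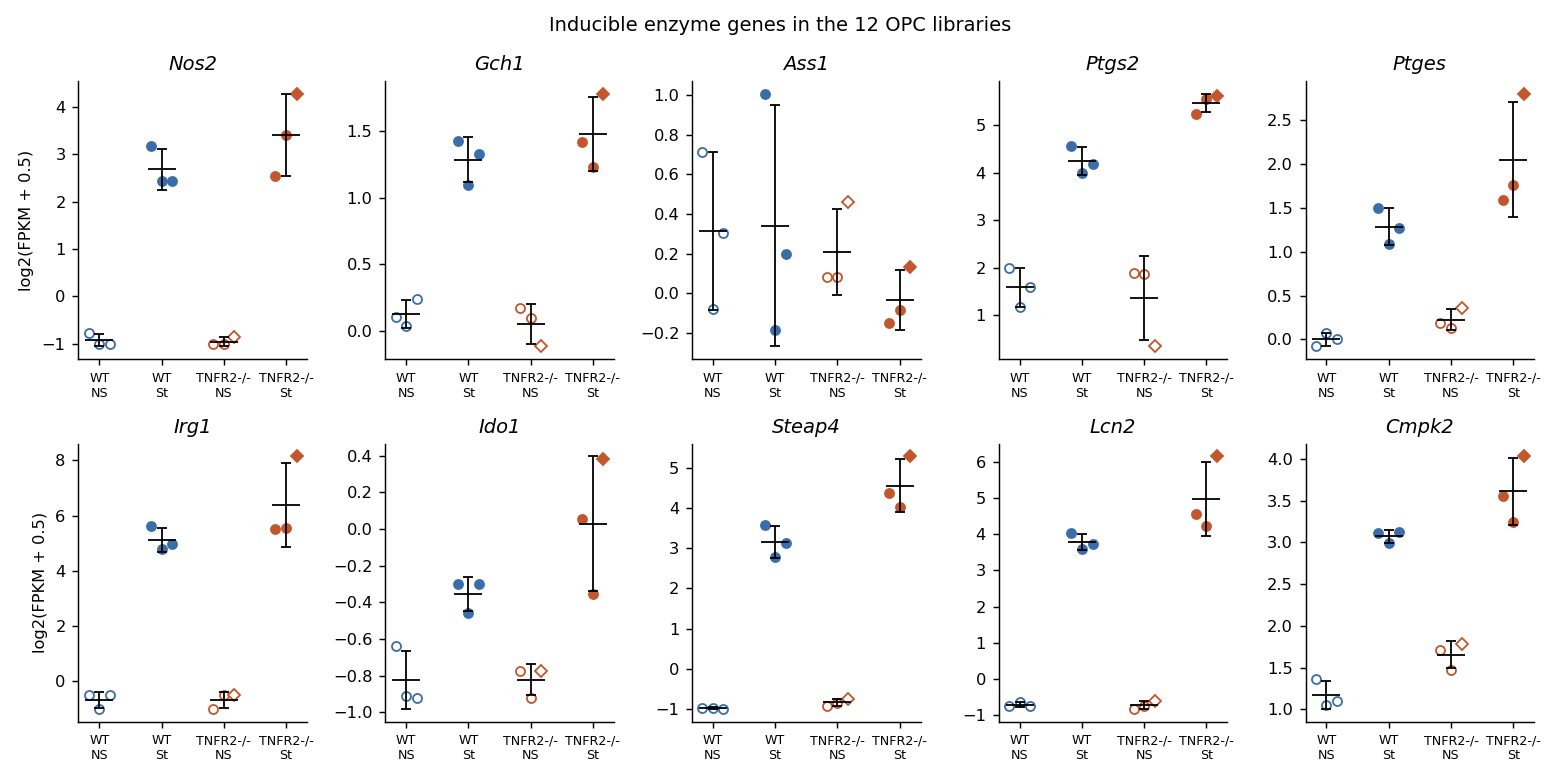
Level of each of the 10 genes as log2(FPKM + 0.5) in the 12 libraries, with open symbols for NS, filled symbols for St, diamonds for TNFR2-/- culture 5, and bars for the mean and SD of 3 libraries on this scale. In 9 panels every St symbol lies above every NS symbol of its genotype, and in *Ass1* they overlap.

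The nitric oxide genes differed among themselves. *Nos2*, the inducible nitric oxide synthase (chr11:78920787-78960254 on GRCm38), had 3, 0 and 0 reads in WT NS cultures 2, 3 and 4, and 0, 0 and 2 in TNFR2-/- NS cultures 2, 4 and 5. It was listed at 8.51, 4.87 and 4.94 FPKM in the WT St libraries, or 312, 178 and 181 reads. In TNFR2-/- St it was listed at 5.33, 10.1 and 18.9 FPKM, or 195, 372 and 660 reads. It was therefore all but silent at rest in both genotypes and present in all 6 stimulated cultures. The ratio of RPM between St and NS was 215 in WT (95% exact interval 73.4 to 1047) and 625 in TNFR2-/- (173 to 5171). Such intervals cover counting error only and are wide because NS libraries held so few reads. The fitted log2 difference was 3.61 ± 0.36 (SE, adjusted p = 5.1e-05) in WT and 4.36 ± 0.36 (adjusted p = 9.2e-06) in TNFR2-/-, and for genes this low it depends on the pseudocount.

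*Gch1*, the first enzyme in the synthesis of tetrahydrobiopterin, the cofactor of *Nos2*, was already expressed at rest. It was listed at 0.575, 0.526 and 0.680 FPKM in WT NS and 2.19, 1.64 and 2.01 FPKM in WT St libraries. TNFR2-/- libraries held 0.628, 0.570 and 0.422 FPKM (NS) and 2.18, 1.85 and 2.94 FPKM (St). These narrow ranges lay clear of each other, and the increase was 1.16 ± 0.15 on the log2 scale in WT (adjusted p = 0.00043) and 1.43 ± 0.15 in TNFR2-/- (adjusted p = 7.3e-05). In mean FPKM that was a ratio of 3.28 in WT and 4.30 in TNFR2-/-.

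*Ass1*, which joins citrulline and aspartate on the way back to arginine, the substrate of *Nos2*, did not follow. It was listed at 1.14, 0.446 and 0.734 FPKM in WT NS and 1.51, 0.381 and 0.645 FPKM in WT St libraries, so that the same WT culture was highest in both. In TNFR2-/- it was listed at 0.560, 0.557 and 0.876 FPKM (NS) and 0.400, 0.444 and 0.597 FPKM (St). The groups overlapped in both genotypes. The log2 difference was 0.03 in WT (95% interval -0.61 to 0.66, adjusted p = 0.98) and -0.24 in TNFR2-/- (-0.88 to 0.39, adjusted p = 0.59), which leaves changes of about this size undetectable here. Its partner *Asl*, which releases arginine, was at 53.9 ± 4.5 FPKM in WT NS and 58.7 ± 1.2 in WT St (SD, n = 3), and was not called in any comparison.

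Among 20 other genes of nitric oxide, arginine and tetrahydrobiopterin metabolism, 17 were tested, none was called in WT after stimulation, and the median log2 difference of the 17 was -0.07. In TNFR2-/- 2 were called lower, *Gucy1b3* by -0.73 ± 0.10 (adjusted p = 0.00032) and *Gucy1a3* by -0.89 ± 0.29 (adjusted p = 0.043), the subunits of the soluble guanylate cyclase that senses nitric oxide. The constitutive synthases *Nos1* and *Nos3* never exceeded 15 and 6 reads in a library and, like the *Gch1* regulator *Gchfr* (at most 19 reads), fell below the filter. *Nos2* was thus the synthase gene with appreciable reads, and this was so in St libraries alone.

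Of the prostaglandin genes, *Ptgs2* (COX-2, chr1:150100031-150108227), which oxygenates arachidonic acid, had the most reads of the 10 genes in each St library. It was listed at 3.47, 1.76 and 2.51 FPKM in WT NS and 23.3, 15.4 and 17.7 FPKM in WT St libraries. In TNFR2-/- it was at 3.19, 3.15 and 0.764 FPKM (NS) and 37.5, 46.2 and 48.7 FPKM (St). Culture 5 was the lowest of all NS libraries and the highest of all St libraries. The increase was 2.66 ± 0.38 on the log2 scale in WT (adjusted p = 0.00066) and 4.11 ± 0.38 in TNFR2-/- (adjusted p = 2.2e-05), or ratios of mean FPKM of 7.28 and 18.6.

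*Ptges* (microsomal prostaglandin E synthase, downstream of *Ptgs2*) rose less. Its mean was 0.5004 ± 0.051 FPKM in WT NS and 1.96 ± 0.356 in WT St (SD, n = 3), and 0.669 ± 0.099 in TNFR2-/- NS and 3.96 ± 2.19 in TNFR2-/- St. The wide spread in the last group came with culture 5, at 6.47 FPKM against 2.50 and 2.89 FPKM in cultures 2 and 4. The log2 increase was 1.29 ± 0.26 in WT (adjusted p = 0.0069) and 1.83 ± 0.26 in TNFR2-/- (adjusted p = 0.00056).

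Of 19 other prostanoid genes, 16 were tested, and 3 were called higher after stimulation in each genotype, against a median log2 difference of 0.03 in WT and 0.05 in TNFR2-/-. These were *Hpgd*, which inactivates prostaglandins, *Ptger4*, a prostaglandin E2 receptor, and *Pla2g4a*, the phospholipase that frees arachidonic acid. *Hpgd* went from 1.34 ± 0.52 to 13.5 ± 3.6 FPKM in WT (log2 2.93 ± 0.39, adjusted p = 0.0004) and from 2.07 ± 0.91 to 29.6 ± 17 FPKM in TNFR2-/- (log2 3.47 ± 0.39, adjusted p = 9.1e-05). *Ptger4* increased by 0.98 ± 0.23 in WT (adjusted p = 0.016) and 1.68 ± 0.23 in TNFR2-/- (adjusted p = 0.00044), and the WT call of *Ptger4* and both calls of *Pla2g4a* were lost when single libraries were left out. The constitutive cyclooxygenase *Ptgs1* had a log2 difference of -0.33 in both genotypes and was not called, and the other E synthases *Ptges2* (-0.04 in WT) and *Ptges3* (0.27 in WT) were not called either.

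*Irg1* (*Acod1*, chr14:103046977-103056573), which makes itaconate from cis-aconitate, went from no more than 1 read in any NS library to 236, 131 and 150 reads in WT St and 216, 225 and 1304 reads in TNFR2-/- St libraries. On the deposited scale these were 48.7, 27.1 and 31.0 FPKM in WT St and 44.7, 46.2 and 282 FPKM in TNFR2-/- St. Cultures 2 and 4 of TNFR2-/- thus lay within the WT range, and culture 5 alone stood far above it. The ratio of RPM was 249 in WT (95% exact interval 68.6 to 2062) and 890 in TNFR2-/- (246 to 7351). limma gave log2 differences of 5.79 ± 0.59 (adjusted p = 6.0e-05) and 7.06 ± 0.59 (adjusted p = 1.0e-05). With voom on the recovered reads, the WT call was lost (adjusted p = 0.055), and adjusted p in WT ranged up to that value over the alternatives. Of 11 genes of itaconate and succinate metabolism, all tested, none was called after stimulation in either genotype.

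*Ido1*, the first enzyme of the kynurenine pathway, had 5, 1 and 1 reads in WT NS and 11, 8 and 11 in WT St libraries, and 3, 1 and 3 in TNFR2-/- NS and 19, 10 and 27 in TNFR2-/- St. Every St library held more reads than every NS library, but the level stayed under 1 FPKM. The ratio of RPM was 4.13 in WT (95% exact interval 1.78 to 11.1) and 8.16 in TNFR2-/- (3.71 to 21.2). On the fitted scale the difference was 0.47 ± 0.17 in WT (adjusted p = 0.089) and 0.85 ± 0.17 in TNFR2-/- (adjusted p = 0.0039), so the gene passed the p threshold in TNFR2-/- and was not called because of its level.

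Its neighbor *Ido2*, 7802 bases away on chromosome 8 and a second tryptophan-degrading enzyme, was called in both genotypes, from 0.129 ± 0.054 to 2.25 ± 0.51 FPKM in WT (log2 2.11 ± 0.23, adjusted p = 0.0001) and from 0.201 ± 0.26 to 3.36 ± 0.50 FPKM in TNFR2-/- (log2 2.51 ± 0.23, adjusted p = 2.1e-05). Of 15 tryptophan and kynurenine genes 10 were tested, and 3 were called higher in WT and 4 in TNFR2-/-. Besides *Ido2* these were *Wars*, the tryptophanyl-tRNA synthetase (log2 1.25 in WT and 1.38 in TNFR2-/-), *Ccbl2*, which makes kynurenic acid (0.62 and 0.66), and, in TNFR2-/-, *Ahr*, a receptor for tryptophan products (0.69, adjusted p = 0.027, with 0.33 in WT). *Tdo2* had at most 16 reads and was not tested.

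The iron genes went from a few reads at rest to more than 1000 in every St library. *Steap4* (chr5:7960457-7982213), a metalloreductase that reduces iron and copper, had 2, 2 and 0 reads in WT NS and 2153, 1192 and 1569 in WT St libraries. In TNFR2-/- it had 6, 11 and 19 reads (NS) and 3791, 2971 and 6931 (St). The libraries labelled TNFR2-/- were higher than every WT library of the same condition at rest and after stimulation. The ratio of St to NS in RPM was 1183 in WT (95% exact interval 462 to 4345) and 388 in TNFR2-/- (280 to 554), whereas the fitted log2 difference was 4.14 ± 0.29 in WT (adjusted p = 3.0e-06) and 5.38 ± 0.29 in TNFR2-/- (adjusted p = 3.5e-07). The order of the genotypes in relative increase was thus opposite on the read scale and on the pseudocount scale.

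*Lcn2*, which binds siderophores and so withholds iron from bacteria, was at 0.107 ± 0.026 FPKM in WT NS and 0.104 ± 0.048 in TNFR2-/- NS (SD, n = 3). It was listed at 16.02, 11.7 and 12.7 FPKM in WT St and at 23.1, 18.2 and 71.3 FPKM in TNFR2-/- St libraries. The increase was 4.51 ± 0.39 in WT (adjusted p = 1.7e-05) and 5.71 ± 0.39 in TNFR2-/- (adjusted p = 2.2e-06) on the log2 scale, and 127 (91.5 to 183) and 355 (256 to 507) as ratios of RPM.

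Of 16 other iron and siderophore genes 15 were tested, and 4 were called higher in WT and 5 in TNFR2-/-. *Cp*, the ferroxidase ceruloplasmin, increased by 1.99 ± 0.22 in WT (adjusted p = 0.00011) and 2.77 ± 0.22 in TNFR2-/- (adjusted p = 6.9e-06). The paralogs *Steap1* (log2 1.64 in WT and 2.20 in TNFR2-/-) and *Steap2* (0.85 and 1.45), which lie within 2.317 Mb of *Steap4* on chromosome 5, also rose, as did *Slc11a2*, an iron importer (0.98 and 1.26). *Slc39a14*, a zinc and iron importer, was called in TNFR2-/- (0.73) and not by size in WT (0.35). *Steap3* (-0.34 in WT) and the *Lcn2* receptor *Slc22a17* (-0.12 in WT) were not called.

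*Cmpk2*, the mitochondrial UMP-CMP kinase and an interferon-stimulated gene, was expressed at rest in all cultures. It was listed at 2.08, 1.57 and 1.65 FPKM in WT NS and 8.14, 7.43 and 8.23 FPKM in WT St libraries. TNFR2-/- libraries held 2.77, 2.27 and 2.95 FPKM (NS) and 11.3, 8.95 and 15.8 FPKM (St). The increase was nearly equal in both genotypes, with 1.90 ± 0.18 in WT (adjusted p = 3.7e-05) and 1.95 ± 0.18 in TNFR2-/- (adjusted p = 2.3e-05), or ratios of mean FPKM of 4.49 and 4.51. *Rsad2* (viperin), which makes an antiviral nucleotide and lies 12751 bases away on chromosome 12, increased by 1.69 ± 0.16 in WT (adjusted p = 3.6e-05) and 1.84 ± 0.16 in TNFR2-/- (adjusted p = 1.4e-05). Of 16 other nucleotide genes 15 were tested, and *Rsad2* and *Samhd1*, a dNTP hydrolase (log2 1.35 and 1.67), were those called higher in each genotype. The cytosolic kinase *Cmpk1* was not called (-0.08 and 0.06).

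**Figure D2:**
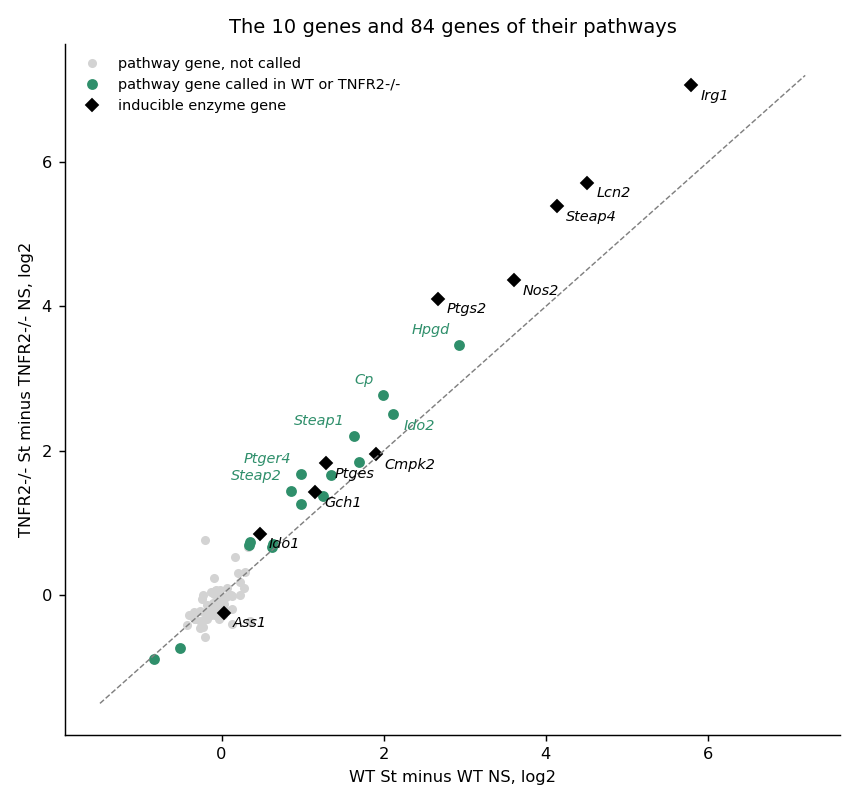
Log2 difference after stimulation in WT (x axis) and TNFR2-/- OPCs (y axis) for the 10 genes (diamonds) and the 84 tested genes of their pathways (circles, green where called in either genotype), with the dashed line where both are equal. On this scale *Irg1* is highest on both axes at 5.79 and 7.06, and *Ass1* lies among the genes not called at 0.03 and -0.24. The 0.5 FPKM added was worth 2.42 to 112 reads, depending on the gene, so this order of genes is not an order of induction. As ratios of RPM, *Steap4* (1183) was above *Irg1* (249) in WT, and *Irg1* (890) above *Steap4* (388) in TNFR2-/-.

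Over the 6 pathway lists, 12 of 84 tested genes were called higher and 0 lower in WT by limma, and 14 higher and 2 lower in TNFR2-/-. The shares of all genes tested are those given above for higher calls, and 2.95% (WT) and 4.68% (TNFR2-/-) for lower ones. *Ptges*, *Ass1* and *Lcn2* lie within 1.499 Mb of chromosome 2, and of these *Ass1* was not called.

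Libraries with the same number within a genotype deviated from their group means together, so St minus NS was also taken within each culture. For 9 of the 10 genes all 6 cultures went up, and for *Ass1* 1 of 6 did. The share of all genes that rose in all 6 cultures was not taken, so this count only describes the 10. The response of *Irg1* ranged from 5.48 (WT culture 4) to 8.65 (TNFR2-/- culture 5) on the log2(FPKM + 0.5) scale, that of *Lcn2* from 4.26 to 6.77 and that of *Steap4* from 3.74 to 6.02. *Ptgs2* ranged from 2.58 to 5.28, *Nos2* from 3.42 to 5.13 and *Cmpk2* from 1.74 to 2.24. For these 9 genes the strongest response of all was that of TNFR2-/- culture 5, the culture with high *Gfap*. The share of all genes with their strongest response there was not taken. Of 6 OPC markers, *Gpr17* and *Sox10* were highest of their condition in both libraries of this culture, and *Pdgfra* and *Cspg4* lowest. *Olig1* and *Olig2* lay in between. The part of the cell composition of culture 5 in these values was not tested.

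**Figure D3:**
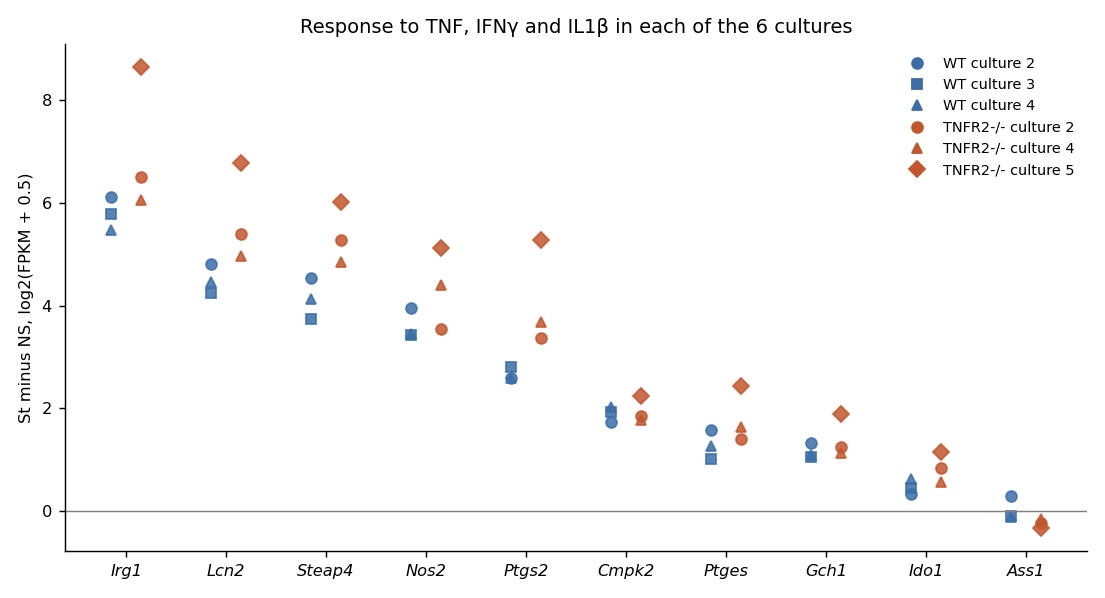
St minus NS in log2(FPKM + 0.5) for each gene in the 3 WT and 3 TNFR2-/- cultures, 1 symbol per culture, ordered by the median. TNFR2-/- culture 5 is the top symbol for every gene but *Ass1*, whose 6 symbols lie between -0.33 and 0.29.

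Within groups the libraries also held an order that most genes shared. In St libraries, TNFR2-/- culture 5 was the highest of 6 for 9 of the 10 genes, against 30.2% of all genes tested. WT culture 2 was the highest of the 3 WT St libraries for 9 genes (all but *Cmpk2*), against 37.8%, and WT culture 3 the lowest for all 10, against 34.4%. In bulk RNA, more responding cells and more RNA per cell cannot be told apart.

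Levels can be compared between genes only per length, and the deposited FPKM did not allow this. Each gene's FPKM came from its reads divided by a number of bases that ran from 161 for *Irg1*, whose annotated exons sum to 2623 bases, to 7466 for *Ptgs2*, with 4580. Over 16010 genes this number had a Spearman correlation of 0.01 with annotated length, and 26.4% were within 2-fold of it. The FPKM limits for testing and calling, the pseudocount and the shares of all genes called rest on this scale. Rescaled to RPM per kilobase of annotated exon, *Ptgs2* had the highest mean in all 4 groups, at 30.6 ± 6.63 in WT St and 72.0 ± 9.58 in TNFR2-/- St (SD, n = 3). In WT St it was followed by *Lcn2* (19.6 ± 3.30) and *Steap4* (17.3 ± 5.09), which overlapped each other and lay under every *Ptgs2* value. This order depended on the length used. With the longest annotated transcript in place of all exons, *Lcn2* (37.3) came before *Ptgs2*, which moved by less than its SD, and *Gch1* (3.73) came before *Irg1*, whose length is the same either way. In TNFR2-/- St the ranges of *Ptgs2* and *Lcn2* overlapped, with *Lcn2* at 103.5 and *Ptgs2* at 79.4 in culture 5, and in TNFR2-/- NS those of *Ptgs2* and *Cmpk2*, with *Cmpk2* at 2.11 and *Ptgs2* at 1.25 in culture 5. In WT St with all exons, *Cmpk2* (5.68 ± 0.313) came after *Steap4*, clear of its neighbors in the order. *Irg1* (2.18 ± 0.708), *Gch1* (2.09 ± 0.302), *Nos2* (1.69 ± 0.576), *Ass1* (1.23 ± 0.856) and *Ptges* (1.11 ± 0.203) followed, each overlapping the next, and *Ido1* (0.182 ± 0.031) was last and clear of them. *Irg1*, first of the 10 by mean deposited FPKM in both St groups, thus stood after *Cmpk2* by mean level per length in both. In TNFR2-/- St the ranges of *Cmpk2* and *Irg1* overlapped, with *Irg1* at 17.3 and *Cmpk2* at 11.3 in culture 5. In WT NS the order was *Ptgs2* (4.20), *Cmpk2* (1.26), *Ass1* (1.12), *Gch1* (0.638) and *Ptges* (0.285), with *Cmpk2*, *Ass1* and *Gch1* overlapping in turn and the other 5 genes at 0.155 or less.

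**Figure D4:**
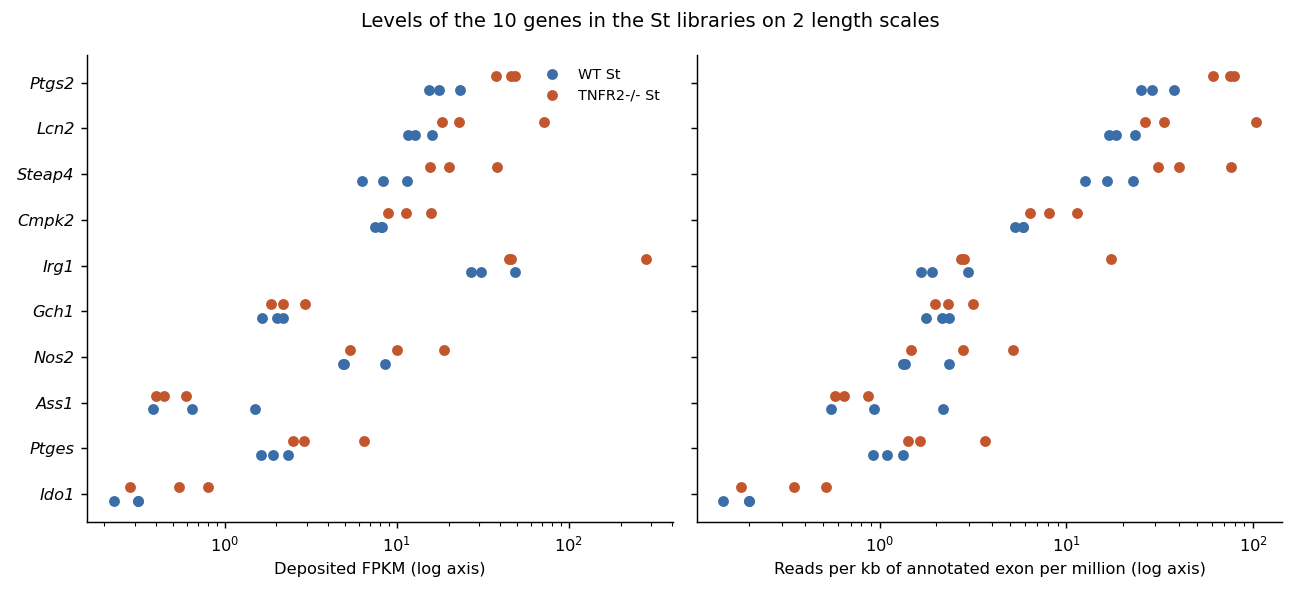
Levels of the 10 genes in the 6 St libraries, as deposited FPKM (left) and as RPM per kilobase of annotated exon (right), both on log axes, with 1 point per library. *Irg1* is at 27.1 FPKM or more in each library on the left, with *Ptgs2* level with it in TNFR2-/- culture 4, and *Ptgs2*, *Lcn2* and *Steap4* lead on the right.

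At rest no difference between the genotypes was called. None of the 10 was called by limma in TNFR2-/- NS vs WT NS, where 1.62% of all genes were called higher and 1.28% lower. With limma 1 gene, *Cmpk2*, had an unadjusted p of at most 0.05, as 17.7% of all genes had with a higher level. With voom none was called either. *Cmpk2* was at 2.67 ± 0.353 FPKM in TNFR2-/- NS and 1.77 ± 0.273 FPKM in WT NS (SD, n = 3), a log2 difference of 0.48 ± 0.18 (adjusted p = 0.11, from 0.032 to 0.27 over the alternatives). *Cmpk2*, *Ptges* and *Steap4* were higher with no overlap, 3 of 10 against 19.9% of all genes. *Steap4* stood at 36 reads over the 3 NS libraries labelled TNFR2-/- against 4 over WT NS, a ratio of 8.62 in RPM (95% exact interval 3.09 to 33.3), with a fitted difference of 0.15 (-0.49 to 0.78). *Ptgs2* had a log2 difference of -0.22 (95% interval -1.06 to 0.61) and 0.29 without culture 5.

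After stimulation, 9 of the 10 genes were higher in the libraries labelled TNFR2-/- by estimate, and 1, *Steap4*, was called. In this comparison 1.18% of all genes were called higher, and culture 5 was the highest library for 9 of the 10, as given above. *Steap4* was at 24.7 ± 12.1 FPKM in TNFR2-/- St and 8.67 ± 2.56 FPKM in WT St (SD, n = 3), a log2 difference of 1.39 ± 0.29 (adjusted p = 0.029). Its lowest TNFR2-/- St value, 15.6 FPKM, exceeded its highest WT St value, 11.4 FPKM. The call was lost without both libraries of culture 5, with a difference of 1.03 ± 0.21 (adjusted p = 0.053), and without WT St culture 3 (adjusted p = 0.11), WT St culture 4 (0.097) or TNFR2-/- St culture 2 (0.059).

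In all, 5 genes did not overlap between the St groups, namely *Steap4*, *Ptgs2*, *Lcn2*, *Ptges* and *Cmpk2*, each higher where labelled TNFR2-/-, against 15.4% of all genes. *Ptgs2* differed by 1.22 ± 0.38 (95% interval 0.39 to 2.06, adjusted p = 0.077, from 0.02 to 0.22 over the alternatives, and called with voom and with library weights) and kept most of that without culture 5, at 1.15 ± 0.24 (adjusted p = 0.056). *Lcn2* differed by 1.19 ± 0.39 (adjusted p = 0.09) and by 0.60 ± 0.15 without culture 5 (adjusted p = 0.074). *Irg1* fell back most, from 1.27 ± 0.59 (adjusted p = 0.20) to 0.39 ± 0.27 (adjusted p = 0.42). *Ptges* (0.76 to 0.39), *Nos2* (0.73 to 0.29), *Cmpk2* (0.54 to 0.33), *Ido1* (0.38 to 0.20) and *Gch1* (0.19 to 0.04) also had smaller estimates without it, and the median of the 10 went from 0.75 to 0.36. *Ass1* had a difference of -0.37 (95% interval -1.01 to 0.26, adjusted p = 0.43). Astrocyte markers were higher in the same libraries, as given above, and their part was not tested.

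**Figure D5:**
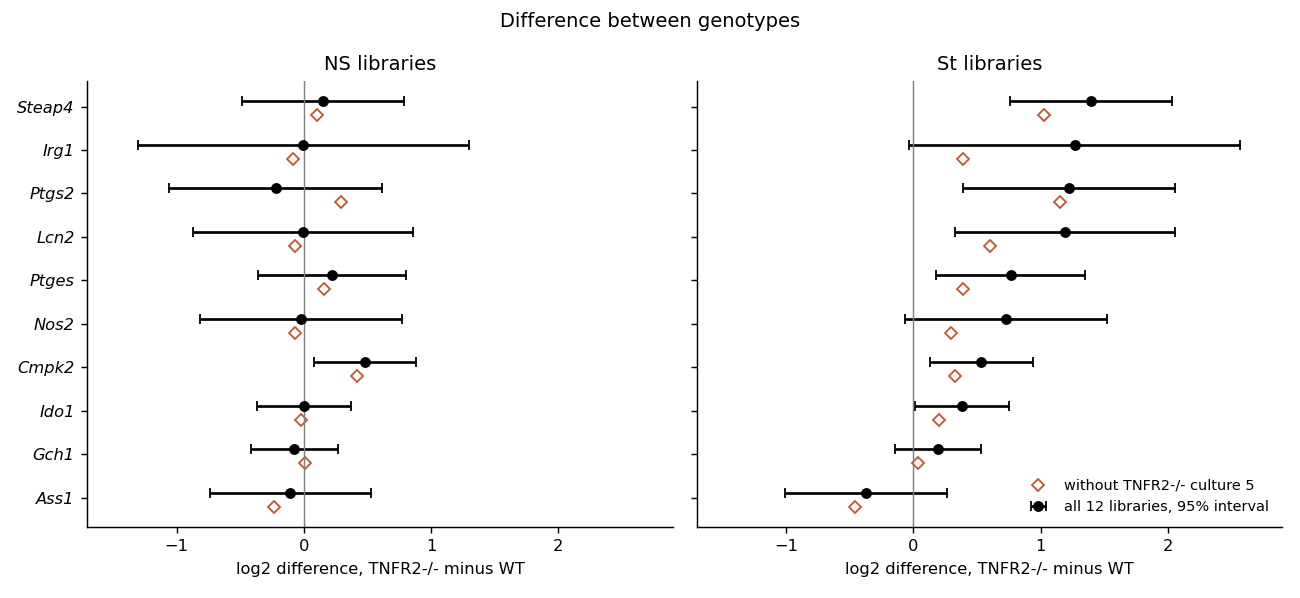
Log2 difference of TNFR2-/- minus WT in NS libraries (left) and St libraries (right) for the 10 genes, with points and 95% intervals from all 12 libraries and open diamonds for the estimate without TNFR2-/- culture 5. On the right 9 points lie above 0 and most diamonds lie nearer to 0 than their points, *Ptgs2* moving least of the genes above 1 (1.22 to 1.15).

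Among the pathway genes, 5 of 84 were called higher and 1 lower (0.614% of all genes) in TNFR2-/- St vs WT St. *Steap1* (0.94 ± 0.19, adjusted p = 0.028) and *Steap2* (0.79 ± 0.13, adjusted p = 0.015) were called with *Steap4*, and without culture 5 *Steap2* was still called (0.68, adjusted p = 0.035) and *Steap1* was not (0.71, adjusted p = 0.059). Both calls were lost without WT St culture 3 (limma adjusted p = 0.11 for *Steap1* and 0.066 for *Steap2*) and without WT St culture 4 (0.098 and 0.066). *Ptgs1* was higher in the libraries labelled TNFR2-/- both after stimulation (1.60 ± 0.30, adjusted p = 0.023) and at rest (1.59 ± 0.30, adjusted p = 0.018), as was *Pla2g4a* (0.78, adjusted p = 0.044, and 0.70, adjusted p = 0.042). *Ptgr2*, a prostaglandin reductase, was called higher in both (0.71 and 0.65), and *Nme2*, a nucleoside diphosphate kinase, lower in both (-1.22 and -0.70). Without culture 5 the *Ptgs1* calls were lost with the difference as large (1.62, adjusted p = 0.066, after stimulation and 1.59, adjusted p = 0.051, at rest). Those of *Pla2g4a* were lost too (0.59, adjusted p = 0.087, and 0.60, adjusted p = 0.067), as was that of *Ptgr2* after stimulation (0.62, adjusted p = 0.066). These losses were not limited to culture 5. The St calls of *Ptgs1*, *Pla2g4a* and *Ptgr2* were also lost without WT St culture 3 or 4. The NS calls of *Ptgs1* and *Pla2g4a* were also lost without WT NS culture 3 or 4.

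Whether the response itself differed between genotypes was tested as the interaction. None of the 10 genes was called by limma, where 1 gene of 18081 (0.00553%) was, and voom called none of them. At an unadjusted p of at most 0.05 with a positive estimate (3.14% of all genes) there were 2, *Ptgs2* (1.44 ± 0.53, adjusted p = 0.56) and *Steap4* (1.25 ± 0.41, adjusted p = 0.53). With culture as a block the lowest adjusted p among the 10 was 0.13, for *Steap4*, whose estimate turned to -1.46 with voom. *Cmpk2* had the estimate nearest to 0, at 0.05 (95% interval -0.51 to 0.62). A larger response in TNFR2-/- was therefore not shown for any of these genes at this number of cultures.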

How the data were processed

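RNAseq was analyzed from 12 libraries of cultured mouse OPCs. Per the labels and the methods, trimming by the authors was done in Trim Galore, alignment to GRCm38 and counting in STAR, and their own edgeR calls were not part of the tables. Versions of STAR and edgeR are not given in the sources used here. The deposited values were FPKM, in 1 table for NS and 1 for St libraries, each value depending on its own library total. Symbols used more than once (99) were left out. FPKM steps gave whole reads for 26635 of 26636 genes above 0 in at least 2 libraries (tolerance 0.02 reads).

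The test was limma (version 3.58.1, R 4.3.3) on log2(FPKM + 0.5), with 1 mean for each of the 4 groups and a prior that followed the mean level. It covered the 18081 genes that averaged 0.1 FPKM or more. Lengths (all exons joined, or the longest transcript as an alternative) and positions came from GENCODE M21, other values from Python 3.11.15, pandas 2.3.3 and scipy 1.17.1. Within a genotype, NS and St libraries of the same number correlated at 0.34 to 0.65 after removal of group means, and across genotypes at -0.06 to 0.20, so numbers pair libraries of 1 culture only. The 10 genes, the lists and the markers were chosen with earlier results of these data known. Named genes were the 10, the pathway genes with the 2 largest rises and falls among calls of each list in WT St vs WT NS, and relatives of the 10. *Gucy1a3*, *Gucy1b3*, *Ccbl2*, *Ahr*, *Slc11a2*, *Slc39a14*, *Pla2g4a*, *Ptgr2* and *Nme2* were named after their values were seen. Leaving out culture 5 was added after seeing the data.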

Additional observations from a re-analysis of the deposited data

How the results depend on the processing

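With 3 cultures a group, an exact test of 1 gene cannot go under p = 0.1, so the calls rest on the spread shared over genes by limma. Genes with a few NS reads have fold changes that depend on the pseudocount. The count of 8 genes called after stimulation held in WT and in TNFR2-/- without any 1 library (8 to 8 in both). With voom on the recovered reads 7 were called in WT, since *Irg1* had an adjusted p of 0.055. In TNFR2-/- St vs WT St, where 1 gene was called, 2 were called with library weights and with voom (*Ptgs2* and *Steap4*), and 0 without the filter on low values, with only the 6 libraries compared, and without both libraries of TNFR2-/- culture 5 (chosen after seeing the data). Leaving out 1 library at a time gave 0 to 3 there, and 0 to 0 at rest and for the interaction. The cause was not tested.

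Estimates near 0 changed sign. So did that of *Steap4* in the interaction, which was not near 0 in the main fit (1.25 ± 0.41). *Ass1* in WT St vs WT NS was -0.044 with library weights, -0.025 with quantile normalization, -0.019 with voom, and -0.31 to 0.29 without single libraries. *Ptgs2* in TNFR2-/- NS vs WT NS was 0.072 with library weights, 0.29 without culture 5 and -0.48 to 0.29 without single libraries. *Steap4* in that comparison was -0.15 with the replicate number as a block. In the interaction, *Ass1* was -0.53 to 0.065 without single libraries, *Steap4* was -1.46 with voom, and *Cmpk2* was -0.097 with library weights, -0.014 with a pseudocount of 0.1 FPKM, -0.034 with voom, -0.093 without culture 5 and -0.16 to 0.24 without single libraries.

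With culture as a replicate block, 8 genes were called in WT, 8 in TNFR2-/- and 0 in the interaction, so pairing NS with St changed no call of the 10 genes. The block on the replicate number gave 0 (NS) and 1 (St) between genotypes. Numbers do not pair libraries across genotypes, so this block is no test of pairing there. With the longest transcript as the length, the WT St levels of *Lcn2* (37.3), *Gch1* (3.73) and *Cmpk2* (7.22) moved by more than their SD.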
